A study of Mus musculus with 3 samples.

Results

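The genes examined here are 10 genes that mark cortical inhibitory neurons: Gad1, Gad2, Slc32a1, Dlx1, Dlx2, Dlx5, Lhx6, Sst, Npy and Calb2. They were found by symbol among 20823 mouse genes whose transcripts have both UTRs and a CDS, and each was represented by its longest transcript. Ribosome footprints, the mRNA fragments that ribosomes shield from nuclease, had been sequenced from mouse primary cortical neurons, which the study's methods derive from CD-1 embryos. The 3 libraries differ in drug treatment. WT neurons received no drug. Chx neurons were given the elongation inhibitor cycloheximide for 2 min. Harr neurons were given harringtonine, which stops ribosomes that have just initiated and lets the others run to the end of the CDS, for 2 min, followed by cycloheximide. All lysates were collected in buffers with cycloheximide at 100 μg per ml, and every library was made from 3 pooled dishes. With 1 library per treatment, the differences below could not be checked against replicates and carry no p-values. Intervals are 95% counting intervals, which cover counting error only.

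Inhibitory interneurons make the transmitter GABA from glutamate through glutamate decarboxylase, of which Gad1 and Gad2 encode separate forms. They load it into synaptic vesicles with the transporter encoded by Slc32a1. Cortical interneurons are born in the ganglionic eminences, where the homeobox factors Dlx1, Dlx2 and Dlx5 set the GABAergic fate. The LIM homeobox factor Lhx6 acts in the lineage of the medial eminence. The mature subclasses are told apart by what they contain, such as the peptides somatostatin (Sst) and neuropeptide Y (Npy) or the calcium-binding protein calretinin (Calb2). In cultures that hold several cell types, fewer cells of a type and less RNA per cell cannot be told apart.

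On the mm10 build, 6 of the 10 genes lie on chromosome 2, 2 on chromosome 6, and 1 each on chromosomes 16 (Sst) and 8 (Calb2). Harringtonine leaves footprints at start codons, and a footprint is counted here at its 5′ end, which lies upstream of the codon that the ribosome holds. Reads at the annotated start therefore fall into the 5′ UTR, either in the start exon or, for spliced reads, in the exon before it. The start codons of the transmitter and peptide genes, and that of Dlx1 for its long 5′ UTR, are shown with 15 bases before and 12 after the ATG, which is in capitals (GENCODE transcripts, mRNA strand).

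Gad1 (chromosome 2, first base of the start codon at 70563832, plus strand): aagaccaccgagctgATGgcatcttccact

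Gad2 (chromosome 2, 22622663, plus strand): agtctagcagaacccATGgcgtctcctggc

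Slc32a1 (chromosome 2, 158611242, plus strand): cgccccgccgccgccATGgccaccctgctc

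Sst (chromosome 16, 23890744, minus strand): cctgaggcaaggaagATGctgtcctgccgt

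Npy (chromosome 6, 49823598, plus strand): tgcccgcccgccacgATGctaggtaacaag

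Dlx1 (chromosome 2, 71529994, plus strand): accccgcgagaagagATGaccatgaccacc

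Of the 10 start codons, 8 had a purine 3 bases upstream, against 84.1% of all genes with a sequence. A G directly after the ATG was found in 5 genes (49.3% of all genes), and both features together in 3 (41.0% of all genes). Gad1 and Gad2 have a pyrimidine 3 bases upstream and a G after the ATG. An ATG upstream of the annotated start occurred in 6 of the 10 (55.7% of all genes). Gad1, Gad2, Npy and Calb2 had none. Dlx1, whose 5′ UTR of 1881 nt is the longest of the 10, had 20, each closed by a stop codon before the annotated start. The 5′ UTR of Npy ends at an exon border, so that its start exon holds 0 nt of 5′ UTR.

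Aligned reads numbered 30219197 in WT, 35722483 in Chx and 9754412 in Harr. The 8 general neuronal markers summed to 5569 CDS reads per 1000000 reads in WT, 5204 in Chx and 3888 in Harr. The 4 astrocyte markers summed to 213, 195 and 78.8 on this scale, respectively. Markers of oligodendrocytes, microglia and endothelial cells stayed between 0.896 and 6.52 reads per 1000000, and Mog, Mobp and Cdh5 were at 0 in all libraries. Their part in the results below was not tested.

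All 10 genes were translated in all 3 libraries, across a wide range of footprint density. In WT the order of CDS density (RPKM, reads per kilobase of CDS and per 1000000 reads of the library) was Sst with 1481, Gad1 with 416, Npy with 317, Slc32a1 with 211, Gad2 with 147, Dlx5 with 59.2, Calb2 with 30.2, Dlx2 with 27.2, Lhx6 with 25.03 and Dlx1 with 20.3. The transmitter and peptide genes thus stood above the transcription factors and calretinin. Neighbours in this order were separated by more than counting error, except Calb2 with Dlx2 and Dlx2 with Lhx6. Sst stood at the 99.9 percentile of all genes with at least 10 CDS reads in WT, and Dlx1 at the 68.5 percentile. In Chx the top 6 kept this order, followed by Calb2 (26.5) and Lhx6 (25.6), whose intervals overlapped, then Dlx2 (21.5) and Dlx1 (14.4). In Harr the densities were lower for each gene, from 261 for Sst to 6.54 for Dlx1, in a library where a smaller part of the reads falls into CDS. There Npy (81.3) and Gad2 (79.5) overlapped, and so did each neighbouring pair from Dlx2 (17.3) through Lhx6 (14.6), Dlx5 (12.7) and Calb2 (10.3) to Dlx1. Gad1, Sst and Slc32a1 together made up 76.2% of the CDS reads of the 10 genes in WT, 77.2% in Chx and 70.8% in Harr.

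**Figure D1:**
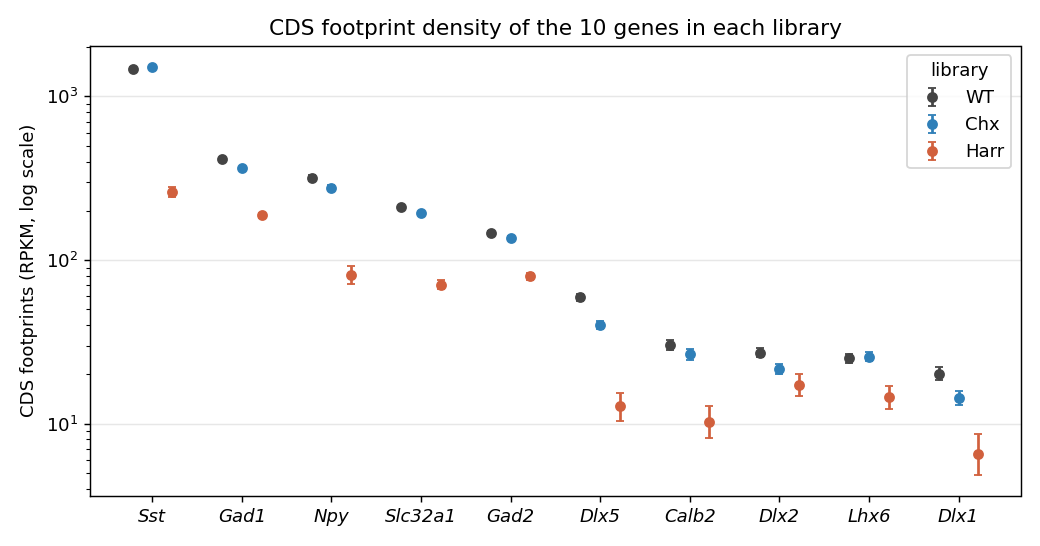
CDS footprint density in RPKM on a log axis for the 10 genes in the WT, Chx and Harr libraries, with exact Poisson intervals as bars. In WT the points run from 1481 for Sst down to 20.3 for Dlx1, and the Harr points are the lowest for every gene.

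The share of reads in each part of the transcript separated Harr from the other libraries. Over the 10 genes together, 5′ UTR reads were 9.90% of the total in WT, 9.97% in Chx and 53.8% in Harr. The same share over all genes was 6.14%, 8.71% and 33.5%. The CDS of the 10 genes held 89.1%, 89.7% and 39.6% of the reads, respectively. The 3′ UTR held 1.01% in WT, 0.309% in Chx and 6.60% in Harr, against 2.19%, 1.72% and 4.10% over all genes. Without Gad1, the 3′ UTR share of the other 9 genes was 0.998%, 0.440% and 2.87%. Part of the 3′ UTR of Lhx6 is coding in other transcripts, and without that stretch the 10 genes had 617, 133 and 1185 3′ UTR reads in place of 719, 236 and 1236. In Harr the 5′ UTR share was highest for Sst, at 80.6%, and lowest for Npy, at 12.2%. Dlx1 differed from the others without harringtonine as well, since 38.7% of its reads in Chx and 33.5% in WT were in its long 5′ UTR. Lhx6 was the gene with the highest 3′ UTR share, from 13.8% in Chx to 35.7% in Harr.

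**Figure D2:**
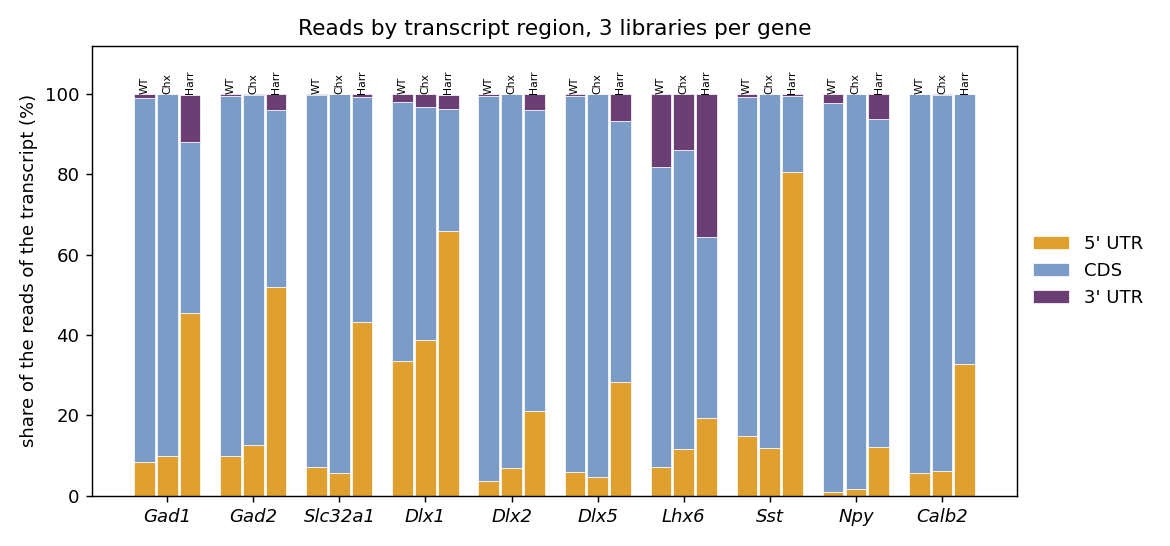
Percentage of the reads of each transcript in the 5′ UTR, CDS and 3′ UTR, as stacked bars for WT, Chx and Harr from left to right within each gene. The 5′ UTR part is largest in Harr for every gene and reaches 80.6% for Sst.

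To see which start codons gathered ribosomes under harringtonine, 5′ UTR reads were set against CDS reads of the same gene as a log2 odds ratio between libraries. The ratio was higher in Harr for every one of the 10 genes, as it was for most genes. A gene was called when the log2 odds ratio was at least 1 in size and its interval left out 0, over genes with at least 10 5′ UTR reads in the pair. Harr against Chx gave 10 of 10 genes called higher, where 88.8% of all genes were. Harr against WT also gave 10 of 10, against 93.7% of all genes. Both comparisons use the same Harr library. The median of the 10 was 3.07 against Chx (2.45 over all genes) and 3.15 against WT (3.23 over all genes). The counts are near the background and are therefore no result about these genes; their sizes differed among them.

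Gad1, the larger contributor of decarboxylase footprints, had 5′ UTR counts of 2563 (Chx), 3511 (Harr) and 2084 (WT), beside 23119, 3268 and 22413 CDS reads. The 5′ UTR count was thus highest in the shallowest library. Its log2 odds ratio was 3.28 (3.19 to 3.37) against Chx and 3.53 (3.44 to 3.62) against WT. The 64 nt of 5′ UTR in the Gad1 start exon held 2668 of the 3511 Harr reads, a density 22.7 times that of the CDS, compared with 2.48 times in Chx and 1.83 times in WT. The 291 nt exon upstream had 500, 843 and 613 reads, or 0.132, 1.58 and 0.167 times the CDS density. Most of the Gad1 5′ UTR reads were therefore in the exon that continues into the start codon shown above.

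Gad2, the other decarboxylase, had 1252 (Chx), 1610 (Harr) and 856 (WT) 5′ UTR reads with 8574, 1364 and 7785 CDS reads. Its log2 odds ratios of 3.01 (2.88 to 3.15) and 3.42 (3.28 to 3.57) were slightly below those of Gad1. For the vesicular transporter Slc32a1, 5′ UTR reads were 646, 837 and 785, and CDS reads 10948, 1089 and 10067. The ratio was 3.70 against Chx and 3.30 against WT. The synthesis and transport genes thus all had more 5′ UTR reads in Harr than in the deeper libraries.

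The Dlx genes had fewer reads and wider intervals. Dlx1 had 264 (Chx), 107 (Harr) and 244 (WT) 5′ UTR reads with 396, 49 and 470 CDS reads, which gave 1.70 (1.17 to 2.24) against Chx and 2.06 (1.53 to 2.60) against WT. Dlx2 had 56, 48 and 32 5′ UTR reads with 768, 169 and 821 CDS reads, and ratios of 1.96 (1.36 to 2.56) and 2.85 (2.17 to 3.54). Dlx5 had 62, 47 and 97 5′ UTR reads with 1242, 108 and 1557 CDS reads, and ratios of 3.12 and 2.81. Dlx1 and Lhx6 were the lowest of the 10 against WT. Lhx6 had 155, 67 and 80 5′ UTR reads with 998, 155 and 826 CDS reads, and ratios of 1.48 (1.00 to 1.96) and 2.16 (1.63 to 2.68). Its UTRs overlap coding sequence of other Lhx6 transcripts, and only 3 nt of its 5′ UTR lie in the start exon.

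Sst, a secreted peptide of a large interneuron class, gave the highest ratio. Its 5′ UTR counts were 2518 (Chx), 3779 (Harr) and 2777 (WT), and its CDS counts 18858, 892 and 15709. In Harr the 5′ UTR count exceeded the CDS count, while in the other libraries the CDS count was far larger. The log2 odds ratio was 4.99 (4.87 to 5.11) against Chx, at the 98.2 percentile of all genes, and 4.58 (4.46 to 4.70) against WT, at the 85.5 percentile. Among genes with a CDS under 600 nt it was at the 95.4 and 71.6 percentile, respectively. A fall in CDS reads raises this ratio as well as a gain in 5′ UTR reads. Npy, the other peptide, had only 50, 35 and 23 5′ UTR reads with 2899, 233 and 2819 CDS reads, at ratios of 3.13 (2.48 to 3.77) and 4.19 (3.41 to 4.97). Its 5′ UTR density was 0.480 times that of the CDS in Harr, while that of Sst was 6.95 times. The start codon of Npy is the first base of its exon, so reads whose 5′ end lies upstream of it are in another exon, which is also 5′ UTR. Whether this border lowered the Npy count was not tested. Calb2 had 51, 40 and 45 5′ UTR reads with 772, 82 and 745 CDS reads, and ratios of 2.88 and 3.01.

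**Figure D3:**
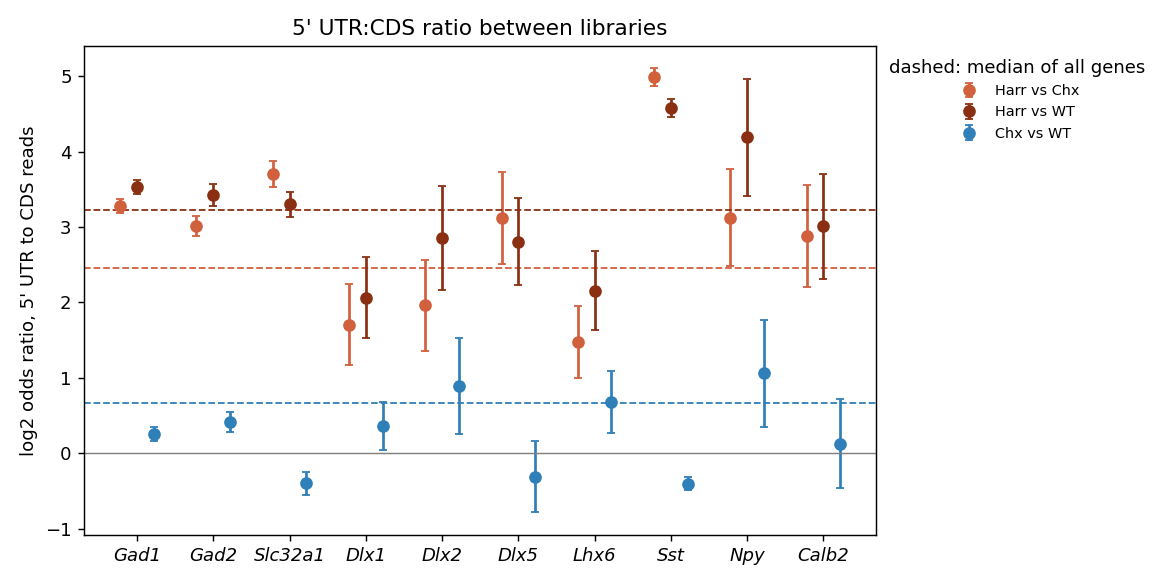
Log2 odds ratio of 5′ UTR to CDS reads for each gene in 3 pairs of libraries, with 95% counting intervals as bars and the median of all genes as dashed lines. Both Harr comparisons are above 0 for every gene and highest for Sst (4.99 and 4.58), while Chx against WT ranges from -0.40 to 1.06.

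Between Chx and WT the 5′ UTR:CDS ratio was above 0 in 7 of the 10 genes and below 0 in 3. Npy was the 1 gene called higher in Chx than WT, at 1.06 (0.35 to 1.77), where 30.2% of all genes were. With a pseudocount of 5 it was at 0.93 and not called. The median of the 10 was 0.31, below the 0.66 of all genes. Slc32a1 (-0.40, interval -0.56 to -0.25) and Sst (-0.40, interval -0.49 to -0.32) were on the other side of 0, with 7.78% and 7.74% of all genes below them. For Dlx5 the value was -0.32, with an interval that held 0. Dlx2 (0.89), Lhx6 (0.68), Gad2 (0.41), Dlx1 (0.36) and Gad1 (0.25) were above 0 by more than counting error but under the size for a call.

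The CDS comparison asked how many footprints remained on each gene relative to the other genes of the library, as a log2 ratio with the reads of each gene scaled to 1000000 reads in all CDS. Most of the 10 genes were lower in Harr than in WT on this scale. Against WT all 10 ratios were below 0, with a median of -1.05, beside 0.002 over all genes. Called lower, by the same size and interval rule over genes with at least 100 CDS reads, were 6 of the 10, where 14.3% of all genes were. These were Sst at -1.99 (3.99-fold lower), Dlx5 at -1.70 (3.25-fold), Npy at -1.45 (2.73-fold), Dlx1 at -1.11 (2.15-fold), Slc32a1 at -1.07 (2.09-fold) and Calb2 at -1.03 (2.05-fold). The count was 4 with a pseudocount of 5, without Dlx1 and Calb2, and 5 with the start segment left out, where Slc32a1 was at -0.62 and Npy at -2.50. Gad1 had -0.63 (-0.69 to -0.58) and Gad2 -0.37 (-0.45 to -0.29), both below 0 by more than counting error. Lhx6 had -0.27 (-0.51 to -0.02), and Dlx2 had -0.13 with an interval that held 0. Against Chx, which is compared with the same Harr library, 9 ratios were below 0, the median was -0.69 (-0.05 over all genes), and 3 were called lower, namely Sst (-1.98), Npy (-1.21) and Dlx5 (-1.10), where 13.7% of all genes were. When reads were scaled to all aligned reads instead, the medians of the 10 were -1.56 against WT and -1.24 against Chx, with 6 called lower against Chx, and the medians of all genes were -0.51 and -0.60.

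How far ribosomes clear a CDS in a fixed time depends on its length, and the 10 genes have short or mid-length CDS, from 294 nt in Npy to 1782 nt in Gad1. They were therefore set beside genes of like CDS length. The class medians for Harr against WT were -0.75 under 600 nt, -0.52 from 600 to 1200 nt and -0.01 from 1200 to 2000 nt. Below the median of their class were 8 of the 10, by a median of -0.61 over the 10 genes. Slc32a1, with a CDS of 1578 nt, was -1.06 from its class median on the log2 scale and had 4.56% of the class below it, while 5.10% of that class were called lower. In the classes that hold the other 5 called genes, calls were more frequent, with 26.2% lower from 600 to 1200 nt and 38.6% under 600 nt. Dlx5 was -1.18 and Sst -1.25 from their class medians. Dlx2 (0.38) and Lhx6 (0.25) were the exceptions above the class median. Without its sixth coding segment, described below, Lhx6 was at -1.01, under the class median of -0.52. In Harr against Chx the same 8 were below, with Sst at -1.30 and Slc32a1 at -0.84 from the class. Dlx1 (-0.04) was close to its class in that comparison.

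**Figure D4:**
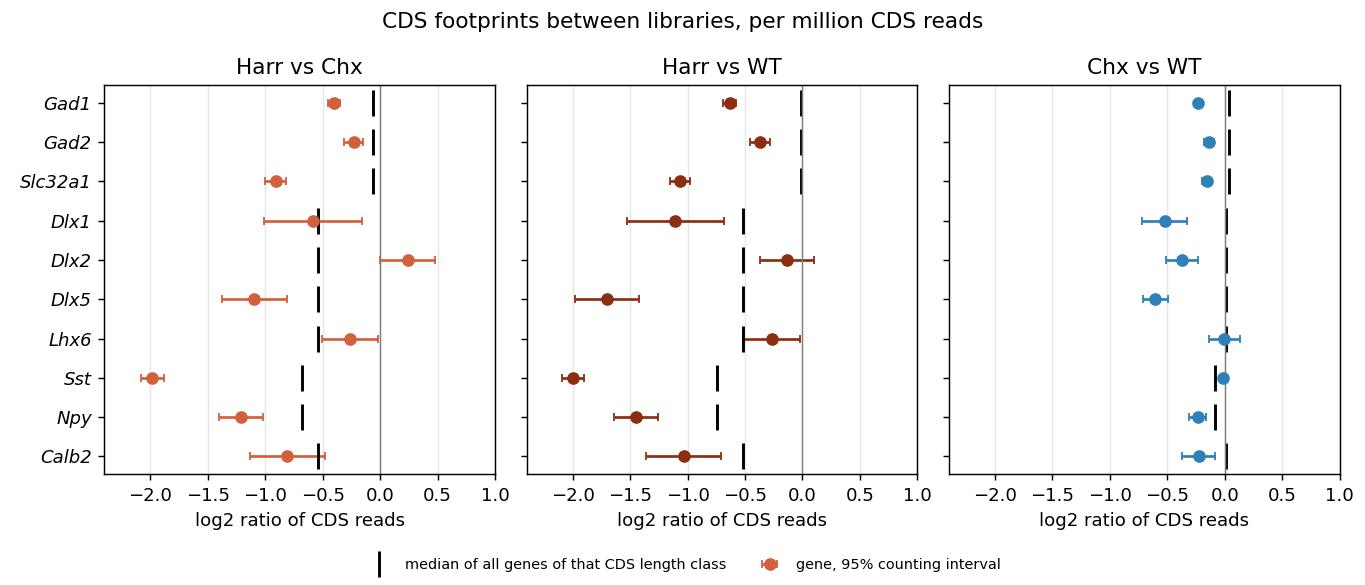
Log2 ratio of CDS reads, scaled to the total in all CDS, for the 10 genes in 3 pairs of libraries, with 95% counting intervals, beside the median of all genes in the same CDS length class as black ticks. In Harr against WT 8 of the 10 points are left of their tick, and in Chx against WT 9 of 10 are.

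Between Chx and WT the differences in CDS reads were small. All 10 ratios were below 0, from -0.60 to -0.01, and the median was -0.23, beside 0.03 over all genes. None of the 10 was called, where 0.122% of all genes were called lower and 0.201% higher. The 3 Dlx genes were the lowest. Dlx5 had 1242 reads in Chx and 1557 in WT, a ratio of -0.60 (-0.71 to -0.50) with 1.35% of all genes below it. For Dlx1 the ratio was -0.52 (-0.72 to -0.33), and for Dlx2 -0.37 (-0.52 to -0.23). Lhx6 and Sst were at -0.01, with intervals that held 0. The other 5, Gad1, Gad2, Slc32a1, Npy and Calb2, ran from -0.24 to -0.14. With the start segment left out, Sst was at -0.45, Npy at -0.66 and Slc32a1 at 0.03, beside -0.67 for Dlx5, -0.47 for Dlx1 and -0.45 for Dlx2. Npy was then below Dlx1 and Dlx2, so the Dlx genes were no longer the lowest 3.

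The coding exons of the decarboxylases show where along the CDS the Harr footprints were. Both genes have 16 coding segments (1 per exon), and the last 12 of each have equal lengths in nucleotides. In Harr, reads were kept in the first segment, were few through the middle and increased toward the last segment, in both genes. In Gad1 the first segment of 79 nt held 1555 (Chx), 319 (Harr) and 1144 (WT) reads. The sixth held 1215, 23 and 1014, so that the Harr reads were 2.27% of the WT reads. The last held 1608, 918 and 1778, or 51.6% of the WT reads. On the scale of reads per 1000000 CDS reads, these segments were at 0.30, -3.29 and 1.19 against WT. In Gad2 the first segment held 943, 206 and 693 reads, the fifth 282, 9 and 328, and the last 735, 290 and 686. The Harr reads of these Gad2 segments were 29.7%, 2.74% and 42.3% of those in WT. Among the 12 segments of equal length, the log2 ratio was below 0 in both genes through the segment centred 1148 nt (Gad1) and 1124 nt (Gad2) from the start codon, and above 0 from the next one on. The values next to this crossing, -0.27 in Gad1 and -0.13 and 0.12 in Gad2, had intervals that held 0. The place of the crossing also depends on the scaling. Per aligned reads, the whole Gad1 CDS was at -1.15 against WT instead of -0.63.

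**Figure D5:**
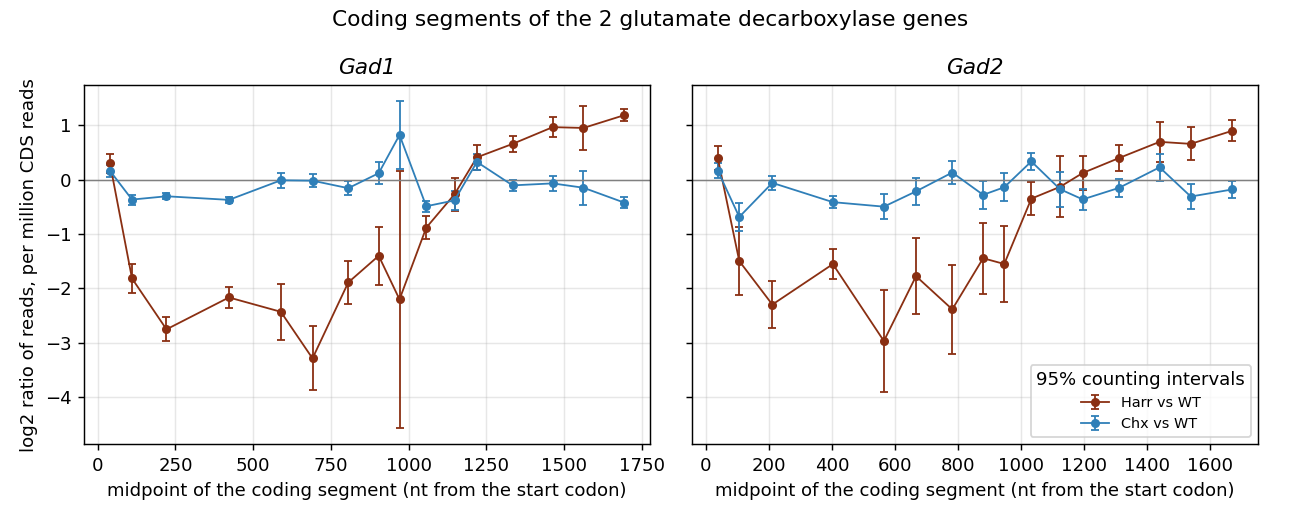
Log2 ratio of reads per 1000000 CDS reads in each coding segment of Gad1 and Gad2, against the midpoint of the segment in nucleotides from the start codon, for Harr against WT and Chx against WT, with 95% counting intervals. The Harr line falls to -3.29 in Gad1 and -2.97 in Gad2 and ends at 1.19 and 0.90, while the Chx line stays between -0.69 and 0.82.

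The coding segments of each gene were also parted into an upstream set, with segment midpoints before the middle of the CDS, and a downstream set. Whole segments were assigned, so that in genes with few exons the border lies away from the middle: the upstream set ended at nt 864 of 1782 in Gad1 and at nt 840 of 1758 in Gad2, but at nt 390 of 1578 in Slc32a1, nt 138 of 351 in Sst and nt 188 of 294 in Npy. The upstream set of Gad1 held 67.6% of the CDS reads in WT, 67.1% in Chx and 28.8% in Harr. The log2 odds ratio of upstream to downstream reads was -2.37 for Harr against WT, and -1.14 was the median of the 1493 genes in its length class. Only 4.42% of that class were below Gad1. Gad2 had 53.6%, 31.2% and 55.5% of its reads in the upstream set (Chx, Harr, WT) and a ratio of -1.46, with 33.8% of the class below it. The first of the 2 coding segments of Slc32a1 held 33.1%, 20.8% and 40.5%, at a ratio of -1.38. Of the 8 genes with at least 100 CDS reads in each library, 4 were called lower in this measure (Gad1, Gad2, Slc32a1 and Lhx6), where 41.8% of all genes were. The peptides were called in the other direction, Sst at 1.09 and Npy at 1.25, where 11.6% of all genes were called higher. The median of their class of short CDS was 1.21. Against Chx, where 41.9% of all genes were called lower, Gad1 (-2.33), Gad2 (-1.35) and Lhx6 (-1.71) were called, while Slc32a1 (-0.92), Sst (0.14) and Npy (0.73) were not. Between Chx and WT none of the 8 was called, where 1.21% of all genes were called higher and 0.126% lower. Sst was the nearest, at 0.95, with 56.1% of its reads in the first of its 2 coding segments in Chx and 39.9% in WT.

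A limit applies to Gad1. Of the 25-base words in its CDS, 23.7% occur in the pseudogene Gad1-ps as well, from 0% of segment 11 to 67.8% of segment 15. Reads of these stretches may have been placed at either gene, so the Gad1 counts are uncertain to that extent. No word of the Gad2, Slc32a1, Dlx1, Dlx5, Sst, Npy or Calb2 CDS occurs in another gene. For Dlx2 1.40% of the CDS words do, and for Lhx6 7.51%, all in its eighth coding segment, where 78.9% of the words occur elsewhere and the reads were 12, 0 and 23. In the 3′ UTR, words shared with other genes were 4.02% for Gad2, 1.69% for Lhx6 and 0.35% for Dlx1. In the 5′ UTR they were 2.51% for Dlx5 and 0.56% for Gad1.

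In Lhx6, 1 coding segment held 45.2% of the CDS reads in Harr. Its sixth segment, of 96 nt (chromosome 2, 36091320 to 36091415, minus strand), held 65 reads in WT, 101 in Chx and 70 in Harr. It thus took 70 of the 155 CDS reads of the gene in Harr, and none of its 25-base words occurs in another gene. Its log2 ratio for Harr against WT was 2.25, while segments 2 to 5 ran from -2.75 to -0.58 and segment 7 was at -1.36. The first segment (1.01, from 12 Harr and 27 WT reads) and the last (0.17, from 7 and 29) were above 0 as well, and the eighth had 0 Harr reads. The segment contains ATG triplets in the reading frame of the gene, at nt 700 and 763 of the CDS, counted from 1 at the first base of the start codon, shown here with the triplet in capitals.

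Lhx6, ATG at nt 700: caattgcaggttATGcaggcgcagttc

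Lhx6, ATG at nt 763: aagctagcggacATGacgggcctcagt

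Positions inside a segment were not recorded in the tables. The triplet at nt 700 begins at base 4 of the segment, so a read with its 5′ end more than 3 bases upstream of that triplet counts toward segment 5, which had 1 Harr read. The triplet at nt 763 begins at base 67. Whether ribosomes start at either triplet was not tested. Without this segment the Lhx6 CDS ratio was -1.01 for Harr against WT (85 and 761 reads, interval -1.33 to -0.69), which meets the rule for a call, and -0.97 against Chx. The ratio of upstream to downstream reads against WT was -1.12 with the segment and 0.56 (-0.16 to 1.27) without it. The position of Lhx6 in both measures in Harr therefore rests on this segment of 96 nt.

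Over the 10 genes together, 719 (WT), 236 (Chx) and 1236 (Harr) reads were in the 3′ UTR of the transcripts used. Gad1 held 920 of those in Harr, and Lhx6 184 of those in Chx. The 3′ UTR:CDS log2 odds ratio for Harr against Chx could be taken for 8 of the 10 genes (at least 10 3′ UTR reads in the pair), with a median of 6.35, or 5.86 when Dlx5, at 0 in Chx, is set to its bound. Called higher were 7 of the 8, where 85.6% of all genes were. Gad1 had 13 (Chx), 920 (Harr) and 258 (WT) reads, a ratio of 8.91 (8.14 to 9.69) at the 99.3 percentile of all genes. The Gad1 3′ UTR thus held more reads in Harr than in either deeper library, as did that of Gad2. Its density was 14.3% of that of the last coding segment in Harr, 0.115% in Chx and 2.07% in WT. Gad2 had 8, 123 and 40 3′ UTR reads, and a ratio of 6.51. Sst had 4, 15 and 115 reads, and Npy 1, 18 and 60. Dlx5 had 0, 11 and 10 reads, which puts its ratio at least 42.2-fold higher in Harr than in Chx when the floor of 3 counts is used. Dlx2 had 0, 9 and 5 reads and was at least 13.6-fold higher by the same floor. These bounds take the Harr counts as exact.

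For Harr against WT, 9 genes could be measured and all 9 were called higher, where 79.0% of all genes were. The median was 2.69, near the 2.57 of all genes, and Gad1 was highest at 4.61 (4.40 to 4.82). Chx against WT went the other way. Of 8 genes, 5 were called lower, where 38.5% of all genes were. These were Npy (-5.37), Sst (-4.95), Gad1 (-4.30), Slc32a1 (-2.84) and Gad2 (-2.39), against a median of -0.92 over all genes. Npy had only 0.646% of all genes below it and Sst 1.29%, though the Chx counts behind them were 1 and 4 reads. Dlx1 (0.88) and Lhx6 (-0.40) were not called. Neither was Dlx5, with 0 reads in Chx and an interval that held 0 (-8.16 to 0.03). The floor of 3 counts, with the WT count taken as exact, gives it a bound of 2.66-fold lower than in WT. The median of the 8 genes was -3.46, or -2.62 with Dlx5 at this bound, and -1.82 with a pseudocount of 5. Lhx6 had 184, 123 and 201 reads in its 3′ UTR, the most of the 10 genes in Chx. A stretch of 59 nt at its upstream end (chromosome 2, 36083996 to 36084054) is coding in 4 other Lhx6 transcripts and held 50.7% of these reads in WT, 56.0% in Chx and 41.5% in Harr.

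Gad1 also has an alternative exon, known from embryonic brain, that carries a stop codon and gives a shortened protein. This exon of 80 nt (chromosome 2, 70584420 to 70584499) had 0 reads in each library. The exons before and after it had 903 and 1215 reads in Chx, 31 and 23 in Harr, and 750 and 1014 in WT. A count of 0 allows up to 3 counts, which is 0.363% of the mean density of the flanking exons in Chx, 0.436% in WT and 13.8% in Harr. At the depth of Harr its translation is therefore less tightly bounded.

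Summed CDS footprints of these genes outnumbered those of a list of 10 excitatory genes in all libraries, but the lists differ in kind. Apart from Slc17a7 and Slc17a6, the excitatory list holds transcription factor genes. Gad1, Sst and Slc32a1 made up 76.2% of the inhibitory reads in WT. Among transcription factor genes alone, the WT densities of the lists overlapped. They ran from 8.17 (Neurod1) to 117.5 RPKM (Neurod6) for excitatory genes and from 20.3 (Dlx1) to 59.2 (Dlx5) for inhibitory genes. Reads of the 10 inhibitory genes were 4.88 times (4.79 to 4.97) those of the excitatory list in WT, 3.87 times (3.81 to 3.94) in Chx and 2.05 times (1.97 to 2.14) in Harr. Slc32a1 had 10.4 times the CDS density of Slc17a7, a vesicular glutamate transporter, in Chx, 6.96 times that in Harr, and in WT 19.5 times. Against Slc17a6, the other glutamate transporter of cortical neurons, it had 9.84, 5.92 and 12.7 times the density in the same libraries. Gad1 exceeded Gad2 in density by 2.84 times (2.77 to 2.91) in WT, 2.66 times (2.60 to 2.73) in Chx and 2.36 times (2.22 to 2.52) in Harr, and these intervals did not overlap. None of the 10 excitatory genes was called in the CDS comparison of Harr with WT, and their median was 0.17, beside -1.05 for the inhibitory genes. Low values were not particular to the inhibitory genes, since the 8 general neuronal markers had a median of -0.98 with 4 called lower and the 4 astrocyte markers -1.28 with 3 called lower. These lists were not matched for CDS length. The most read excitatory genes were the transcription factor genes Neurod6 at 0.16, Tbr1 at 0.54 and Bcl11b at 0.12.

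Other genes of the pathway were taken from lists. Of 10 genes that handle GABA or its precursors, 9 had enough CDS reads. Their median for Harr against WT was -0.44, and 1 was called lower and none higher, where 14.3% of all genes were called lower and 5.3% higher. Among those with the most reads was the glutamine transporter gene Slc38a1, with 5333 (Chx), 937 (Harr) and 4648 (WT) reads and a log2 ratio of -0.17. Slc6a13 was at 0 in Chx and had 1 read in Harr and 2 in WT. Of 25 other interneuron genes, 22 were measured, with a median of -0.42, 1 called higher and 3 lower, which is near the share over all genes. Among the most read were Reln, which encodes the secreted protein reelin and has a CDS of 10386 nt, at 0.46, and the receptor gene Erbb4 at 0.34. In 5′ UTR:CDS ratio, 9 of 9 GABA genes and 19 of 21 interneuron genes were called higher in Harr than in WT, near the 93.7% of all genes.

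Over 4 differences (the CDS ratio and the 5′ UTR:CDS ratio, each for Harr and for Chx against WT), the genes closest to Gad1 by Euclidean distance among 8010 were Idi1, Bhlhb9 and Ccdc25, at 0.110 to 0.138. Those closest to Gad2 were Tmem41b, Dapk3 and Stambp, at 0.101 to 0.132. None of these 6 is on the lists above.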

How the data were processed

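Footprints from 3 libraries (1 per treatment) were analysed. The authors deposited 9 tables, for 3 libraries and 3 regions, written by Plastid with 1 exon segment per line. The deposited counts are whole reads in a segment, their coverage signal, also deposited, is that count per nucleotide, and the deposited RPKM is scaled by length and library total. Per the file headers, reads of 25 to 100 nt were counted at the 5′ end with offset 0, on mm10, after removal of ribosomal and duplicate reads. The headers name no aligner. The study's methods describe a TopHat transcriptome alignment for its ORF search and Rsubread for other libraries, and which of them made these tables is not stated. Groups were taken from the treatment label, because the description fields refer to fractions from a different experiment.

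Only counts were used. RPKM was recomputed from counts and header totals. Of 142446 transcript identifiers, 99.1% matched GENCODE with version. Segments were summed per transcript. Ratios had 0.5 added to each count. CDS ratios were per 1000000 CDS reads with at least 100 CDS reads over the libraries, and UTR ratios needed 10 UTR reads in the pair. Calls needed a log2 size of 1 and a 95% interval without 0. At these depths 3 counts are 0.0840 (Chx), 0.308 (Harr) and 0.0993 (WT) reads per 1000000, so Harr is the least precise. The computations were tested on simulated data (Python 3.11.15, numpy 2.4.6, pandas 2.3.3, scipy 1.17.1).

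All 10 genes are named. From the lists of GABA handling, other interneuron and excitatory genes, the 3 with the most CDS reads and any gene at 0 are named, together with the 3 nearest genes to Gad1 and to Gad2. Some genes that this rule selects are not reported here. Slc17a7 and Slc17a6 are named as the genes that Slc32a1 is compared with, and Mog, Mobp and Cdh5 as markers at 0. The genes and lists were chosen with earlier results of these data known. The Lhx6 segment and alternative exons were singled out after their values were seen. Alternative scalings, transcripts, pseudocounts, minimums and segments were tried.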

Additional observations from a re-analysis of the deposited data

Results flagged for a closer look

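Reads were found in transcripts without a CDS near the Dlx genes, which no comparison above uses. The Dlx6os1 segment of 380 nt (chromosome 6, 6824188 to 6824567, minus strand) had 1227 (Chx), 211 (Harr) and 1639 (WT) reads, more than the floor of 3 counts and more than the CDS of neighbouring Dlx5 in Harr and WT. It overlaps no annotated CDS, and the longest ATG-initiated reading frame in its transcript of 524 nt spans 201 nt. A Dlx1as segment of 312 nt (chromosome 2, 71537580 to 71537891) held 343, 147 and 368 reads. Another Dlx1as segment (71532784 to 71533118, minus strand) had 210, 115 and 243 reads where the plus strand holds the 3′ UTR of Dlx1, which had 22, 6 and 14. The antisense transcript Gad1os had at most 12 reads in any segment and library. Each value is from 1 library per treatment.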

How the results depend on the processing

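Scaling, pseudocount and start segment each moved parts of the CDS comparison. Per 1000000 reads of the header total, the median of the 10 genes was -1.24 for Harr against Chx and -1.56 for Harr against WT, and 6 genes were called lower against Chx instead of 3. The same scaling shifted the median of all genes to -0.60 and -0.51, since a smaller part of the Harr reads is in CDS. With the start segment left out, the median for Chx against WT was -0.34, and Slc32a1 (-0.62 for Harr against WT) was no longer called. With a pseudocount of 5, 0 genes were called higher in the 5′ UTR:CDS ratio of Chx against WT (Npy at 0.93), and Calb2 (-0.96) and Dlx1 (-0.99) were no longer called in CDS for Harr against WT, which left 4 of 6 calls; the 3′ UTR:CDS median of Chx against WT was -1.82 instead of -3.46. The transcript with the most reads was also the longest for all 10 genes, and with it the ratio of inhibitory to excitatory reads was 3.80 in Chx. Chosen after seeing the data, the removal of Lhx6 segment 6 turned its ratio of upstream to downstream coding reads for Harr against WT to 0.56. No median over the 10 genes changed sign under these settings. No paired analysis was possible because each treatment has 1 library. The depth of Harr limits Dlx1 and Calb2, which had 49 and 82 CDS reads there.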
